A study of Mus musculus with 24 samples.

Results

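The collagen genes described here are the protein-coding genes of the deposited expression table whose symbol is Col, a number, the letter a and a number, 36 of the 18723 genes listed. They comprise 11 chains of fibrillar collagens, 5 of type IV, 6 of type VI, 1 of type VII, 2 of the short-chain type VIII, 5 fibril-associated collagens, 2 multiplexins, 3 transmembrane collagens and Col28a1. All 36 were tested. Of these, 20 had a mean level at or above the median of all genes, 16 lay below it, and 7 had 0 reads in at least 1 tumour. Col4a6, Col9a1, Col9a2, Col10a1, Col19a1, Col21a1, Col22a1, Col25a1 and Col26a1 were not analysed here.

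RNA was measured in 24 tumours grown from Lewis Lung Cancer cells, a mouse lung adenocarcinoma line per the labels, in mice of genotype WT. The 8 vehicle tumours came from mice given the vehicle, and the 8 dual tumours from mice given anti-PD-1 (100 μg on days 7, 10 and 14) and poly I:C (50 μg on days 11 and 15, injected into the tumour). The 8 triple tumours received the dual treatment and anti-C5aR1, taken here as the PMX53 that the protocol gives at 1 mg/kg daily from day 6. Poly I:C is a synthetic double-stranded RNA that innate immune sensors detect, PD-1 is an inhibitory receptor of T cells, and C5aR1 is a receptor of the complement fragment C5a. The labels used here give no strain, age or sex of the mice. The comparisons ask how tumour transcripts differ between these treatments.

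Collagens are proteins of the extracellular matrix whose chains wind into a helix and then assemble outside the cell into fibrils, networks or filaments. Fibrillar collagens of types I, III and V build the fibrils of connective tissue, type IV collagen builds basement membranes, and type VI collagen forms beaded filaments at the border between them. In tumours, fibroblasts are known as a main source of fibrillar collagen, but tumour cells, pericytes, endothelial cells, muscle and fat cells also make collagen chains. Fewer cells of a type and less RNA per cell cannot be told apart in RNA from whole tumours.

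Levels are given as log2 CPM, the log2 of reads scaled to library size, and total reads per tumour ran from 14438318 to 19254090. A gene was called higher or lower in a comparison when limma gave an adjusted p under 0.05, with Benjamini-Hochberg adjustment over all 18723 genes, and ± after a fold change is its standard error with n = 8 tumours per group. A separate number per tumour in the sample titles, taken here as the mouse number, is the only sign of separate animals. The numbers after the S in the titles, taken here as library numbers, run in 1 block per group. No effect of a batch that followed them could be separated from that of treatment. Skeletal muscle marker transcripts made up 0.0158% to 0.0599% of reads in vehicle, 0.0261% to 0.102% in dual and 0.0265% to 0.278% in triple tumours, and 18 of 20 muscle markers were called higher in triple than in vehicle tumours. The 5 triple tumours T_352_S48, T_353_S45, T_354_S47, T_355_S43 and T_362_S42 held more muscle reads than every vehicle and dual tumour. Leaving these out keeps only 3 triple tumours, T_331_S44, T_360_S46 and T_363_S41, and a call is then harder to reach. The 17 measured of 18 fibroblast markers summed to 0.213% to 0.331% of reads in vehicle, 0.124% to 0.221% in dual and 0.121% to 0.586% in triple tumours, with triple tumour T_352_S48 at the top. That share was lower in dual than in vehicle tumours (exact permutation, adjusted p = 0.00256). Triple tumours passed neither against vehicle (0.942) nor against dual tumours (0.166). Of these 17, 3 were called higher and 5 lower in dual against vehicle tumours (15% and 15.8% of all genes). In triple against vehicle tumours 7 were higher and 4 lower (23% and 22.8% of all genes). In triple against dual tumours 5 were higher and 0 lower (11.4% and 9.97% of all genes). The 9 measured of 11 adipocyte markers summed to 0.00259% to 0.00746% of reads in vehicle, 0.00555% to 0.0157% in dual and 0.00733% to 0.0665% in triple tumours, and the share was higher in dual than in vehicle (exact permutation, adjusted p = 0.00879), in triple than in vehicle (0.00256) and in triple than in dual tumours (0.0233). Of these 9, 2 were called higher in dual and 5 in triple against vehicle tumours, and Adipoq was not among them. The 7 myofibroblast markers summed to 0.262% to 0.687% in vehicle, 0.129% to 0.367% in dual and 0.172% to 0.522% in triple tumours, lower in both treated groups (exact permutation, adjusted p = 0.0163 and 0.0385), although 4 of the 7 were called higher and 1, Fn1, lower in triple against vehicle tumours. All 7 neutrophil markers were called higher in each treated group. The part of these cell types in the collagen results was not tested. Muscle marker reads differ between the groups, so the muscle settings given below cannot tell muscle content apart from treatment. The 6 measured of 7 epithelial markers (Epcam, Cdh1 and keratins among them) reached at most 0.00654% of reads in any tumour, with no reference level of the line at hand to compare.

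Col3a1, Col1a2, Col4a1, Col4a2 and Col4a5 are shown by the sequence at a RefSeq start of each gene, because the results below turn on how these genes moved apart or together. The windows are those of RefSeq on build GRCm38.p6, from 250 bases before to 50 bases after the start, written 5′ to 3′ along the gene, and 29 of the 36 genes had such a window. Capitals mark CCAAT (known as the CCAAT box), TATAAA (known as the TATA box) and GGGCGG (known as the GC box), searched on both strands. CCAAT was present in 37.4%, TATAAA in 13.6% and GGGCGG in 35.6% of 32817 promoter windows of the same length, and no 2 matches overlapped in the windows shown. The Col1a2 window (chr6:4505368-4505667, plus strand) held 2 CCAAT and 2 GGGCGG matches, while the Col3a1 window (chr1:45311288-45311587, plus strand) held 1 TATAAA match and none of the others. The GRCm38.p6 coordinates of the Col1a2 window fall within the numbers of the gene span given below, chr6:4504814-4541544 on GRCm39. Positions were not converted between the builds, so whether this window is at the outermost annotated start of Col1a2 was not settled. Col4a1 (chr8:11312777-11313076, minus strand) and Col4a2 (chr8:11312555-11312854, plus strand) lie on opposite strands with starts 21 bases apart, each inside the other gene, so that the first 22 bases of the genes overlap. Their windows share 78 bases, which the Col4a1 sequence holds at its end as the reverse complement. The Col4a5 window (chrX:141475169-141475468, plus strand) held 1 CCAAT and 1 GGGCGG match. A match describes these letters and shows no bound factor.
Col1a2: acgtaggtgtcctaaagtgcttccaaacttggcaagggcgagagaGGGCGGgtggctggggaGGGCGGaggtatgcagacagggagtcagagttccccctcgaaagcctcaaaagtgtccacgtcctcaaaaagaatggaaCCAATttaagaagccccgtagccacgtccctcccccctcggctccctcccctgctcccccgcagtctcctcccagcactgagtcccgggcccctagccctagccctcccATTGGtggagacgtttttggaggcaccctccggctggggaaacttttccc
Col3a1: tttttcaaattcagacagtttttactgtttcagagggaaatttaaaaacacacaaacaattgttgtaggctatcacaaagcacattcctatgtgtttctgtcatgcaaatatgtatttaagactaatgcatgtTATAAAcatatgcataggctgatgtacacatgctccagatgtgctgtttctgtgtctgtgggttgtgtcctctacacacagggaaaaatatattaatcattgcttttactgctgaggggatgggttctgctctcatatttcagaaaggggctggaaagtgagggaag
Col4a1: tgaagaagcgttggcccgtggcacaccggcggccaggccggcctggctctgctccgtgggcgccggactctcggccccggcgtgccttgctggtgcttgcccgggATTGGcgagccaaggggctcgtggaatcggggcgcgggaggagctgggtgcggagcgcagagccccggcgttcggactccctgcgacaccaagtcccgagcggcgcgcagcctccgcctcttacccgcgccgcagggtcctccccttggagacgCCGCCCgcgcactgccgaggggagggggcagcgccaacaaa
Col4a2: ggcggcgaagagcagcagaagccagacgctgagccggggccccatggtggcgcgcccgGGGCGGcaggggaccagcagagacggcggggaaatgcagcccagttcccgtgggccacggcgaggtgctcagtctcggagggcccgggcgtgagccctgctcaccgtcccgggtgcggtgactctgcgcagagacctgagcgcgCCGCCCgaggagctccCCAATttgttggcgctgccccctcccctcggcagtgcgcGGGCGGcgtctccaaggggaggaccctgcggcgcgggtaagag
Col4a5: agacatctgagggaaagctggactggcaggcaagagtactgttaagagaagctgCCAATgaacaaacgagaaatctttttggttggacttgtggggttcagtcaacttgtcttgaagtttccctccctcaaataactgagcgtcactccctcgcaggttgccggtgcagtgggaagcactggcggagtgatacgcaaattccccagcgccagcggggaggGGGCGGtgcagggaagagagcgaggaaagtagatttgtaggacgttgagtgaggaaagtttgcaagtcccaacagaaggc

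The treated tumours differed from the vehicle tumours in the mix of their collagen transcripts. Collagen reads made up a median of 1.02% of all reads in vehicle tumours (0.780% to 1.46%), 0.862% in dual tumours (0.636% to 1.72%) and 1.28% in triple tumours (0.604% to 5.04%). The ranges of the 3 groups overlapped, and the highest value came from triple tumour T_352_S48. Within the collagen reads, the Col3a1 share had a median of 52.6% in vehicle tumours (51.2% to 55.7%), 35.5% in dual tumours (27.4% to 46.9%) and 30.8% in triple tumours (28.4% to 38.01%). No treated tumour reached the lowest vehicle share. The Col1a1 share had a median of 2.61% in vehicle, 7.84% in dual and 15.7% in triple tumours, and that of Col1a2 a median of 1.93%, 6.03% and 11.9%. Type IV chains held a median of 9.58%, 15.0% and 11.4% and type VI chains 11.8%, 7.51% and 7.72% of collagen reads in the same order. These shares are descriptions, since a share moves when any other member moves.

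**Figure D1:**
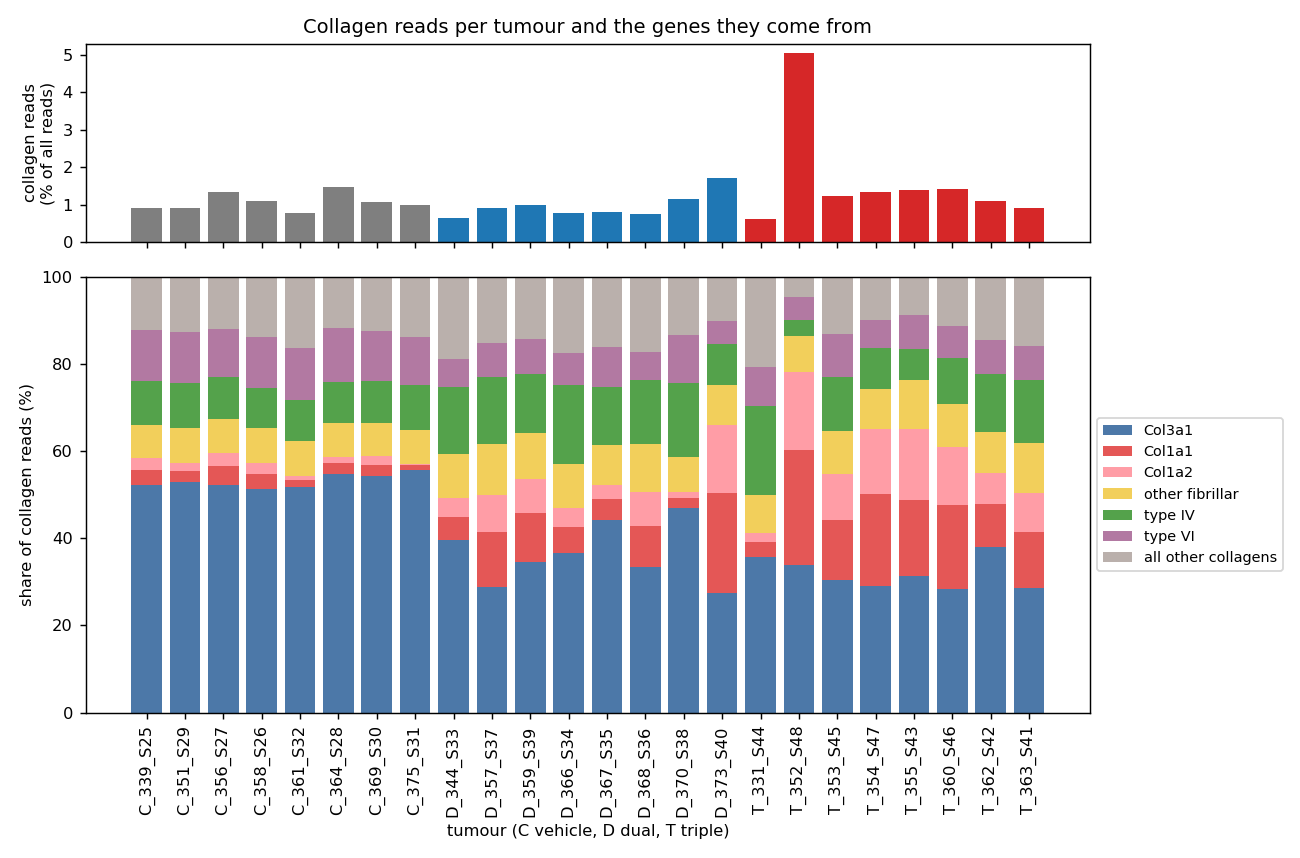
Collagen reads as a percentage of all reads (upper panel) and the percentage of collagen reads from each gene or class (lower panel), 1 bar per tumour, 8 tumours per group. The Col3a1 segment is 51.2% to 55.7% in the vehicle tumours and 27.4% to 46.9% in the treated ones, and the Col1a1 and Col1a2 segments are wider in most treated tumours.

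In dual against vehicle tumours, 9 of the 36 collagen genes were called higher (15% of all genes) and 4 lower (15.8% of all genes). In triple against vehicle tumours, 18 were called higher (23% of all genes) and 4 lower (22.8% of all genes). With the muscle marker score as a covariate these counts were 6 and 1, and without the 5 triple tumours rich in muscle reads 8 were called higher. In triple against dual tumours, 2 were called higher (11.4% of all genes were) and 1 lower (9.97% of all genes were), both shares below those of all genes. The median log2 fold change of the 36 genes was 0.03 in dual against vehicle, 0.79 in triple against vehicle and 0.78 in triple against dual tumours, beside -0.03, -0.02 and -0.00 for all genes. For the 20 members at or above the median expression it was -0.08, 0.42 and 0.45 in the same order. Of these 20, 7, 9 and 0 were called higher and 4, 4 and 1 lower. The comparisons share tumours, each group entering 2 of them. Across the 3 comparisons, 24 of the members passed at least once and 12 in none. Without triple tumour T_331_S44, whose collagen share of 0.604% was the lowest of all, the number called higher in triple against dual tumours went from 2 to 19, and without dual tumour D_373_S40 it went to 7. The shares of all genes called with the covariate or with tumours left out are not given here. Those counts are therefore not read as particular to collagen genes.

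**Figure D2:**
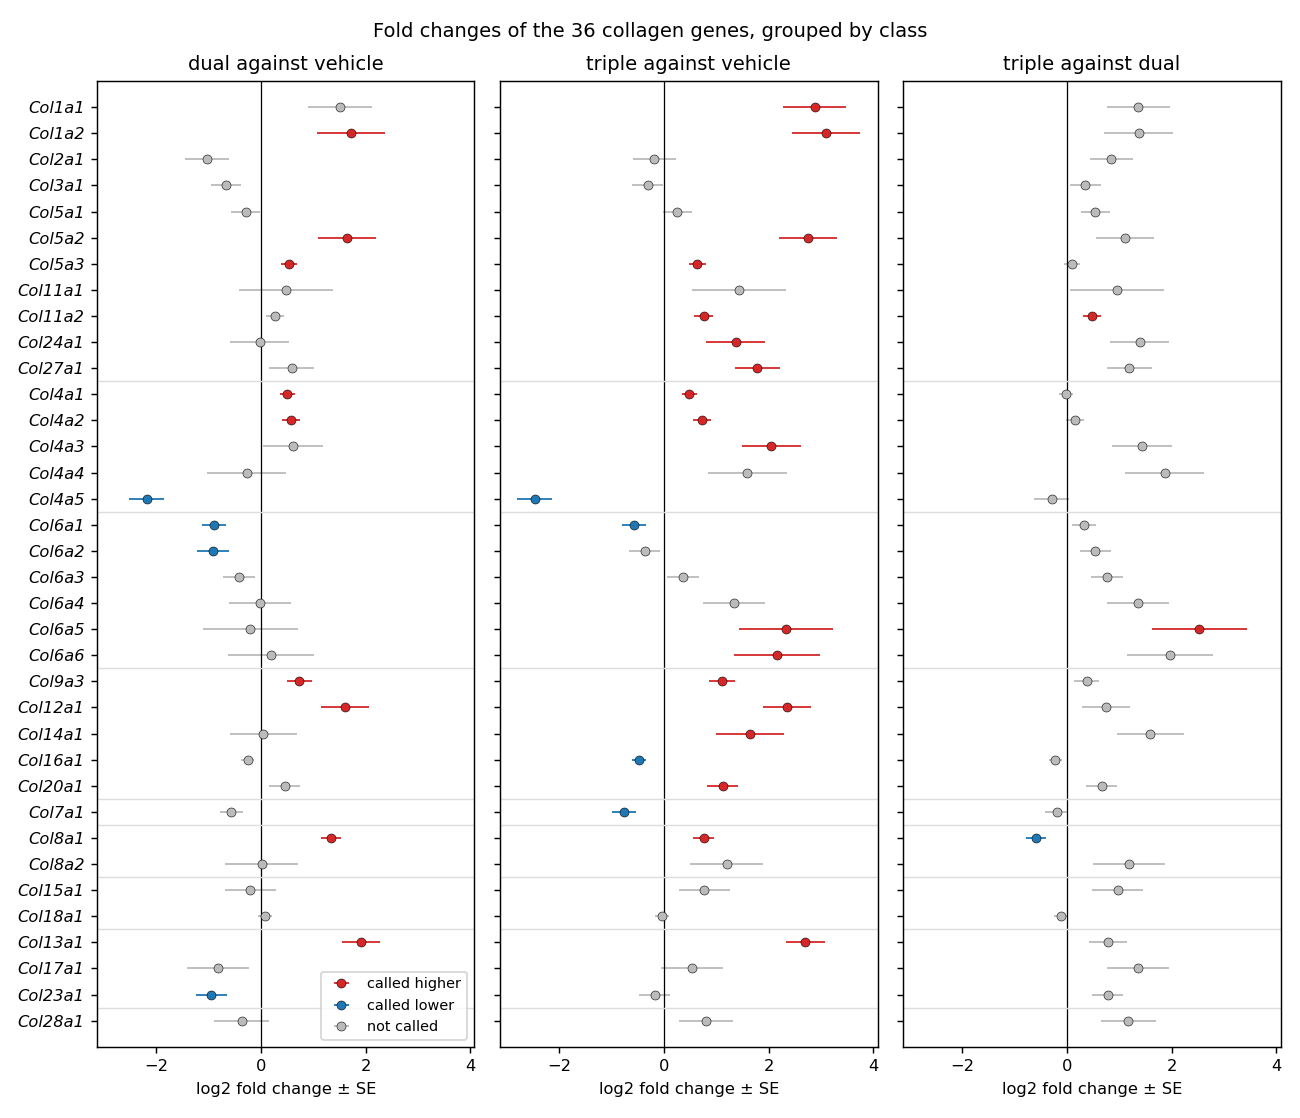
Log2 fold change with its standard error for the 36 collagen genes in the 3 comparisons, grouped by class, with n = 8 tumours per group and filled colours for genes called by limma at an adjusted p under 0.05. In triple against vehicle tumours 18 genes are called higher and 4 lower, and in triple against dual tumours 2 higher and 1 lower although 30 of 36 fold changes are positive.

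Among the fibrillar collagens, Col1a2 rose in both treated groups and Col1a1 in triple tumours, while Col3a1 was called in neither. Col1a1 (ENSMUSG00000001506.11, chr11:94827050-94843868 on GRCm39, plus strand) encodes a chain of type I collagen, the main collagen of skin, bone and tendon. Its log2 CPM was 6.61 at the lowest, 8.17 at the median and 9.07 at the highest in vehicle tumours. Dual tumours ran from 8.12 over a median of 9.22 to 12.00, and triple tumours from 7.74 over a median of 10.98 to 13.88. All triple tumours except T_331_S44 lay above every vehicle tumour, and the dual tumours overlapped both. Triple tumours were 7.35-fold higher than vehicle tumours (log2 fold change 2.88 ± 0.61, adjusted p = 0.000541 by limma, 7 of 8 triple tumours above the vehicle median). Dual tumours differed from vehicle tumours by 1.51 ± 0.61 in log2 (adjusted p = 0.0608), which did not pass. The dual comparison passed when any of C_356_S27, D_344_S33, D_370_S38, T_331_S44 or T_352_S48 was left out (adjusted p from 0.0252 to 0.0496, fold changes from 1.51 to 1.70), and also without the 5 triple tumours rich in muscle reads (adjusted p = 0.0256). A triple tumour bears on it because the spread is estimated over all groups.

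Col1a2 (ENSMUSG00000029661.17, chr6:4504814-4541544 on GRCm39, plus strand), the partner chain of type I collagen, moved with Col1a1. Its log2 CPM ran from 4.82 over a median of 7.60 to 8.59 in vehicle tumours, from 7.53 over 8.81 to 11.43 in dual tumours and from 7.03 over 10.59 to 13.33 in triple tumours. Of the triple tumours, 7 of 8 lay above the vehicle median, the exception being T_331_S44. The gene rose in dual tumours by 1.73 ± 0.66 in log2 (adjusted p = 0.047 by limma) and in triple tumours by 3.10 ± 0.66 (8.57-fold, adjusted p = 0.000546). The dual call was lost in 15 of the 24 fits that each left out 1 tumour, with fold changes between 1.38 and 1.81 in those 15. With the muscle marker score as a covariate, the triple fold changes of Col1a1 and Col1a2 were 1.66 (adjusted p = 0.0897) and 1.596 (adjusted p = 0.111), and both calls ended, as did the dual call of Col1a2 (1.21, adjusted p = 0.109). Without the 5 triple tumours rich in muscle reads they were 1.82 (adjusted p = 0.0569) and 1.92 (adjusted p = 0.0687). Col1a2 shares 1792 bases on the same strand with Gm43921, and the reads there could belong to either.

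Col3a1 (ENSMUSG00000026043.19, chr1:45350698-45388866 on GRCm39, plus strand) encodes the single chain of type III collagen, a fibrillar collagen of skin and vessel walls. Its log2 CPM ran from 11.91 over a median of 12.39 to 12.91 in vehicle tumours, from 11.30 over 11.64 to 12.46 in dual tumours and from 11.11 over 11.96 to 14.24 in triple tumours. One dual and 1 triple tumour, D_370_S38 and T_352_S48, lay above the vehicle median. The fold changes against vehicle tumours were -0.66 ± 0.29 in dual (adjusted p = 0.086 by limma) and -0.31 ± 0.29 in triple tumours (adjusted p = 0.4), and neither passed. Without triple tumour T_352_S48 they were -0.66 (adjusted p = 0.00544) and -0.62 (adjusted p = 0.00905), so that 1 library decides both calls. The dual comparison also passed without dual tumour D_370_S38 (-0.77, adjusted p = 0.0487). Without the 5 triple tumours rich in muscle reads, which include T_352_S48, the values were -0.66 (adjusted p = 0.0049) and -0.91 (adjusted p = 0.00724). Per kilobase of exon (GENCODE vM21 lengths), Col3a1 had the highest median of the 36 genes in each group, at 547, 326 and 407 CPM per kb in vehicle, dual and triple tumours. On the same per-length scale Col1a1 was 7th in vehicle tumours with 44.1 CPM per kb, 4th in dual tumours with 92.6 and 2nd in triple tumours with 314.

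Of the type V chains, which join type I collagen and help fibrils to start, Col5a2 and Col5a3 rose and Col5a1 was not called. Col5a2 ran in log2 CPM from 3.87 over a median of 5.70 to 6.54 in vehicle tumours, from 5.70 over 6.94 to 8.81 in dual tumours and from 5.03 over 8.26 to 10.86 in triple tumours. All 8 dual tumours and 7 of 8 triple tumours lay above the vehicle median. It rose by 1.64 ± 0.56 in dual (3.13-fold, adjusted p = 0.0267 by limma) and by 2.75 ± 0.56 in triple tumours (6.73-fold, adjusted p = 0.000364). With the muscle covariate its fold changes were 1.19 (adjusted p = 0.0591) and 1.43 (adjusted p = 0.0872), and without the 5 triple tumours rich in muscle reads the triple fold change was 1.599 (adjusted p = 0.0563). The dual call was also lost without vehicle tumour C_361_S32 or C_375_S31 and without dual tumour D_357_S37 or D_373_S40 (adjusted p from 0.0509 to 0.0647).

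Col5a1 stood at a higher level and stayed close to it. Its log2 CPM ran from 8.29 over a median of 8.76 to 9.58 in vehicle tumours, from 7.89 over 8.52 to 9.40 in dual tumours and from 8.04 over 9.005 to 10.92 in triple tumours, with fold changes of -0.29 ± 0.28 and 0.26 ± 0.28. Col5a3, a chain found in fewer tissues, ran from 7.86 over 7.997 to 8.37 in vehicle tumours, from 8.33 over 8.54 to 8.90 in dual tumours and from 7.89 over 8.68 to 9.73 in triple tumours. The dual tumours overlapped the vehicle range only at its upper end, and every dual tumour was above the vehicle median. Col5a3 rose by 0.54 ± 0.16 in dual (adjusted p = 0.0117 by limma) and by 0.64 ± 0.16 in triple tumours (adjusted p = 0.00227). The triple call ended with the muscle covariate (0.45, adjusted p = 0.111).

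The other fibrillar chains were scarce. Col2a1, Col11a1 and Col11a2 are known from cartilage, and Col24a1 and Col27a1 are minor fibrillar collagens. Their reads per tumour ran from 1 to 22 for Col2a1, 0 to 114 for Col11a1, 35 to 117 for Col11a2, 7 to 546 for Col24a1 and 23 to 573 for Col27a1. In triple against vehicle tumours, Col11a2 rose by 0.76 ± 0.17 (adjusted p = 0.00115 by limma), Col24a1 by 1.37 ± 0.56 (adjusted p = 0.0488) and Col27a1 by 1.78 ± 0.43 (adjusted p = 0.00177). Col11a2 was also called higher in triple than in dual tumours (0.48 ± 0.17, adjusted p = 0.0498). Col2a1 and Col11a1 passed in no comparison. In all, 3 of 11 fibrillar chains were called higher in dual (15% of all genes) and 7 of 11 in triple tumours (23% of all genes) against vehicle, and none lower (15.8% and 22.8% of all genes). Of those 7 triple calls, the 4 of Col1a1, Col1a2, Col5a2 and Col5a3 ended with the muscle covariate. Whether those of Col11a2, Col24a1 and Col27a1 held in that setting is not given here. The same applies to the scarce Col9a3, Col13a1 and Col20a1 described below.

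**Figure D3:**
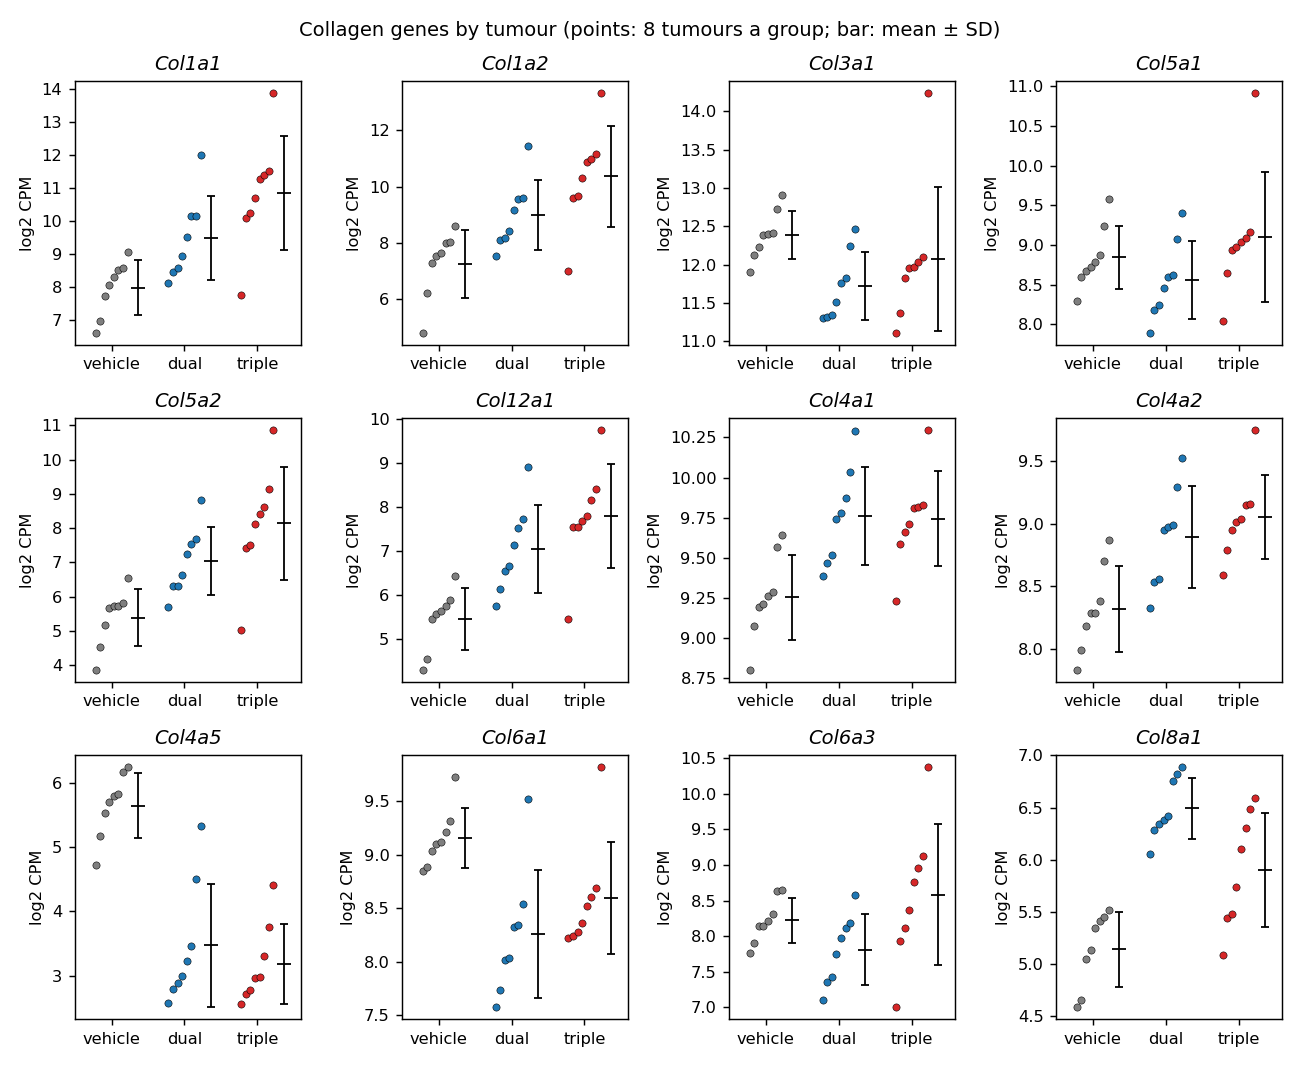
Log2 CPM of 12 collagen genes in each tumour, points sorted within the group, with the mean and SD of 8 tumours as a bar beside them; each panel has its own vertical scale. Col1a1, Col1a2, Col5a2 and Col12a1 spread over several log2 units among triple tumours, Col4a5 is lower in all triple than in all vehicle tumours, and Col8a1 is higher in all dual than in all vehicle tumours.

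Among the 5 fibril-associated collagens, which sit on the surface of fibrils, Col12a1 and Col9a3 rose in both treated groups. Col12a1 ran in log2 CPM from 4.29 over a median of 5.60 to 6.43 in vehicle tumours, from 5.73 over 6.90 to 8.90 in dual tumours and from 5.46 over 7.73 to 9.74 in triple tumours. All 8 dual tumours and 7 of 8 triple tumours were above the vehicle median. It rose by 1.605 ± 0.45 in dual (3.04-fold, adjusted p = 0.00891 by limma) and by 2.35 ± 0.45 in triple tumours (5.10-fold, adjusted p = 0.000226), and with the muscle covariate the triple value was 1.40 (adjusted p = 0.0519). Col9a3, a cartilage collagen chain counted at 12 to 59 reads, rose by 0.73 ± 0.24 (adjusted p = 0.0224) and 1.11 ± 0.24 (adjusted p = 0.000676).

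Col14a1, which binds type I fibrils, separated the triple tumours among themselves. Its log2 CPM ran from 2.86 over a median of 3.88 to 4.24 in vehicle tumours, from 2.89 over 3.57 to 5.47 in dual tumours and from 1.98 over 5.60 to 9.03 in triple tumours. The triple group held both the lowest tumour, T_331_S44, and the highest, T_352_S48. The triple fold change of 1.64 ± 0.64 passed (adjusted p = 0.0387 by limma), and without the 5 triple tumours rich in muscle reads it was -0.16 (adjusted p = 0.856). The lowest tumour, T_331_S44, was among the 3 triple tumours then left. With the muscle covariate it was 0.13 (adjusted p = 0.918). The call was lost in 9 of 24 fits with 1 tumour left out, and the lowest value, 1.13 (adjusted p = 0.0873), came without triple tumour T_352_S48.

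Col16a1 moved the other way. It ran from 7.99 over a median of 8.14 to 8.61 log2 CPM in vehicle tumours, from 7.75 over 7.90 to 8.52 in dual tumours and from 7.36 over 7.76 to 8.25 in triple tumours. It fell by 0.47 on the log2 scale in triple tumours (SE 0.13, adjusted p = 0.00459 by limma, 7 of 8 below the vehicle median), and with the muscle covariate the value was -0.43 (adjusted p = 0.071). Col20a1, counted at 6 to 55 reads, rose in triple tumours by 1.12 ± 0.30 (adjusted p = 0.00385).

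Of the 5 type IV chains, Col4a1 and Col4a2 rose in both treated groups and Col4a5 fell in both. Col4a1 (ENSMUSG00000031502.12, chr8:11248423-11362826 on GRCm39, minus strand) and Col4a2 (ENSMUSG00000031503.14, chr8:11362805-11499287 on GRCm39, plus strand) encode the chains of the type IV collagen found in nearly all basement membranes. Col4a1 ran in log2 CPM from 8.80 over a median of 9.24 to 9.64 in vehicle tumours, from 9.38 over 9.76 to 10.29 in dual tumours and from 9.23 over 9.76 to 10.30 in triple tumours. Every dual and 7 of 8 triple tumours lay above the vehicle median. It rose by 0.51 ± 0.14 in dual (1.42-fold, adjusted p = 0.00726 by limma) and by 0.49 ± 0.14 in triple tumours (1.40-fold, adjusted p = 0.00605), and the triple fold change with the muscle covariate was 0.49 (adjusted p = 0.0576). Col4a2 ran from 7.84 over a median of 8.29 to 8.87 in vehicle tumours, from 8.32 over 8.96 to 9.52 in dual tumours and from 8.59 over 9.02 to 9.74 in triple tumours. All 16 treated tumours were above the vehicle median. It rose by 0.57 ± 0.17 in dual (adjusted p = 0.0118) and by 0.73 ± 0.17 in triple tumours (adjusted p = 0.00121). The 2 genes overlap by 22 bases on opposite strands, beside the shared window printed above.

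Col4a5 (ENSMUSG00000031274.17, chrX:140258381-140472230 on GRCm39, plus strand) encodes a chain of the type IV collagen of specialised basement membranes such as that of the kidney filter. Its log2 CPM ran from 4.72 over a median of 5.75 to 6.24 in vehicle tumours, from 2.57 over 3.11 to 5.32 in dual tumours and from 2.55 over 2.97 to 4.41 in triple tumours. No triple tumour overlapped the vehicle range, and 1 dual tumour, D_370_S38, did. Col4a5 fell by 2.17 on the log2 scale in dual (SE 0.33, adjusted p = 3.54e-05 by limma) and by 2.46 in triple tumours (SE 0.33, adjusted p = 4.8e-06), with all 8 tumours of each treated group below the vehicle median. With the muscle covariate the fold changes were -2.11 and -2.27, and without the 5 triple tumours rich in muscle reads the triple value was -2.63, so both calls held. Groups did not overlap for 2 of the 36 genes in triple against vehicle tumours (9.85% of all genes), Col4a5 and Col13a1.

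Col4a3 and Col4a4, the partner chains of Col4a5, were near the floor of detection. Col4a3 was counted at 0 to 2 reads in vehicle, 0 to 6 in dual and 1 to 11 in triple tumours, and its log2 CPM medians were -3.49, -3.38 and -1.70. It was called higher in triple tumours (2.05 ± 0.57, adjusted p = 0.00506 by limma, 8 of 8 above the vehicle median), and the call ended with the muscle covariate (adjusted p = 0.181) and without the muscle-rich tumours (adjusted p = 0.134). Col4a4, at 0 to 38 reads, had log2 CPM medians of -2.81, -3.16 and -1.04 and passed in no comparison. Col4a3 also overlaps the lncRNA C430014B12Rik on the opposite strand.

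Of the 6 type VI chains, Col6a1 and Col6a2, the chains shared by all type VI collagen, fell in dual tumours. Col6a1 (ENSMUSG00000001119.8, chr10:76544626-76562002 on GRCm39, minus strand) ran in log2 CPM from 8.85 over a median of 9.11 to 9.73 in vehicle tumours, from 7.58 over 8.18 to 9.52 in dual tumours and from 8.22 over 8.45 to 9.82 in triple tumours. In each treated group 7 of 8 tumours lay below the lowest vehicle tumour, the exceptions being dual tumour D_370_S38 and triple tumour T_352_S48. Col6a1 fell by 0.90 on the log2 scale in dual (SE 0.23, adjusted p = 0.004 by limma) and by 0.56 in triple tumours (SE 0.23, adjusted p = 0.0443). The triple call was lost in 13 of 24 fits with 1 tumour left out, with fold changes from -0.58 to -0.48 in those 13, and with the muscle covariate (-0.59, adjusted p = 0.161).

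Col6a2 ran from 7.71 over a median of 8.18 to 8.94 log2 CPM in vehicle tumours, from 6.39 over 7.35 to 8.42 in dual tumours and from 6.88 over 7.77 to 9.75 in triple tumours. It fell by 0.91 in dual tumours (SE 0.30, adjusted p = 0.0218 by limma) and its triple value was -0.37 ± 0.30 (adjusted p = 0.322). Without triple tumour T_352_S48 the triple value was -0.64 (adjusted p = 0.0266), and without the 5 triple tumours rich in muscle reads it was -0.89 (adjusted p = 0.0329). Col6a3, the large chain of the classical type VI molecule, ran from 7.76 over 8.18 to 8.65 in vehicle tumours, from 7.11 over 7.87 to 8.58 in dual tumours and from 7.01 over 8.57 to 10.37 in triple tumours. It passed in no comparison, with -0.41 ± 0.31 in dual against vehicle and 0.77 ± 0.31 in triple against dual tumours (adjusted p = 0.0699).

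Col6a4, Col6a5 and Col6a6, the chains that can take the place of Col6a3, were scarce, at 0 to 72, 0 to 229 and 0 to 84 reads. Col6a5 had log2 CPM medians of -1.65, -2.42 and 0.04 and a range of -3.52 to 3.83 among triple tumours. It was called higher in triple than in vehicle tumours (2.33 ± 0.90, adjusted p = 0.0377 by limma) and than in dual tumours (2.53 ± 0.90, adjusted p = 0.0473). Col6a6 had medians of -2.65, -2.31 and -0.72 and was called higher in triple than in vehicle tumours (2.17 ± 0.83, adjusted p = 0.0347). Without the 5 triple tumours rich in muscle reads, the triple against vehicle values of Col6a5 and Col6a6 were 0.27 (adjusted p = 0.863) and 0.73 (adjusted p = 0.638), and with the muscle covariate 0.36 (adjusted p = 0.832) and 0.77 (adjusted p = 0.619). Each of these 2 calls was lost in 7 of 24 fits with 1 tumour left out, and the call of Col6a5 against dual tumours in 18 of 24. Col6a4 had medians of -1.92, -1.54 and -0.44 and passed in no comparison (triple against vehicle 1.33 ± 0.59, adjusted p = 0.0673).

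In the remaining classes, Col8a1 and Col13a1 separated groups without overlap. Col8a1, a chain of the type VIII network known from vessel walls and the cornea, ran in log2 CPM from 4.59 over a median of 5.24 to 5.52 in vehicle tumours, from 6.06 over 6.40 to 6.89 in dual tumours and from 5.09 over 5.92 to 6.59 in triple tumours. All dual tumours were above all vehicle tumours, and triple tumours lay across both. Col8a1 rose by 1.35 ± 0.19 in dual (2.54-fold, adjusted p = 1.74e-05 by limma) and by 0.76 ± 0.19 in triple tumours (adjusted p = 0.0027). It was the 1 member called lower in triple than in dual tumours, where it fell by 0.59 (SE 0.19, adjusted p = 0.0337). That call was lost in 8 of 24 fits with 1 tumour left out, and without the 5 triple tumours rich in muscle reads the value was -0.19 (adjusted p = 0.778) and with the muscle covariate -0.49 (adjusted p = 0.248). Col8a2, at 0 to 28 reads, passed in no comparison.

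Col13a1, a transmembrane collagen of cell junctions, was counted at 2 to 23 reads in vehicle, 26 to 82 in dual and 42 to 191 in triple tumours. No treated tumour overlapped the vehicle range. It rose by 1.92 ± 0.37 in dual (adjusted p = 0.000324 by limma) and by 2.704 ± 0.37 in triple tumours (adjusted p = 4.79e-06). Groups did not overlap for 2 of the 36 genes in dual against vehicle tumours, Col8a1 and Col13a1 (9.46% of all genes), and for none in triple against dual tumours (0.475% of all genes). Col23a1, another transmembrane collagen, ran from 4.38 over a median of 4.54 to 5.29 log2 CPM in vehicle tumours, from 2.80 over 3.56 to 4.81 in dual tumours and from 3.05 over 4.74 to 5.50 in triple tumours. It fell in dual tumours by 0.95 (SE 0.30, adjusted p = 0.0168), and the triple against vehicle value was -0.17 ± 0.30.

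Col17a1, the transmembrane collagen of hemidesmosomes in skin, was counted at 1 to 239 reads and passed in no comparison. Its highest value, 3.65 log2 CPM in triple tumour T_360_S46, coincided with the highest share of keratinocyte markers, at 0.0123% of reads for the 7 measured of 12 markers. In the other triple tumours that share was at most 0.00116%, and its part in the Col17a1 value was not tested.

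Col7a1, the collagen of the fibrils that anchor the epidermis, ran from 6.24 over a median of 7.36 to 7.77 log2 CPM in vehicle tumours, from 6.13 over 6.66 to 7.45 in dual tumours and from 5.68 over 6.52 to 7.38 in triple tumours. The ranges overlapped widely. It fell by 0.76 in triple tumours (SE 0.22, adjusted p = 0.00773 by limma), and the call ended without the 5 triple tumours rich in muscle reads (-0.63, adjusted p = 0.0791) and with the muscle covariate (-0.53, adjusted p = 0.186). The dual value of -0.56 ± 0.22 did not pass (adjusted p = 0.0566), but did in 6 of 24 fits with 1 tumour left out and without the muscle-rich tumours (adjusted p = 0.0274). Col18a1, the source of endostatin, ran from 8.76 to 9.91 log2 CPM over all 24 tumours, and its fold changes of 0.08 ± 0.13 and -0.03 ± 0.13 did not pass. It overlaps Slc19a1 by 8825 bases on the opposite strand. Col15a1, a multiplexin of vessel and muscle basement membranes, and Col28a1 also passed in no comparison.

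Ratios of 2 collagen genes within a tumour do not depend on library scaling. Of 13 pairs listed, 11 had both genes in the table, giving 33 comparisons tested by 2-sided exact permutation over 12870 assignments, and 12 had an adjusted p under 0.05. The log2 ratio of Col3a1 to Col1a1 was 4.41 ± 0.69 (SD, n = 8) in vehicle, 2.24 ± 1.29 in dual and 1.23 ± 1.00 in triple tumours. Triple tumours did not overlap vehicle tumours, and the differences from vehicle were -2.17 in dual (exact permutation, adjusted p = 0.0044) and -3.19 in triple tumours (exact permutation, adjusted p = 0.0044). Within type V collagen, the log2 ratio of Col5a2 to Col5a1 was -3.46 ± 0.68 in vehicle, -1.53 ± 0.89 in dual and -0.96 ± 0.98 in triple tumours, with differences of 1.93 and 2.49 (exact permutation, adjusted p = 0.0044 for both). Within type VI, Col6a3 over Col6a1 was -0.94 ± 0.18 in vehicle and -0.01 ± 0.68 in triple tumours, a difference of 0.92 (exact permutation, adjusted p = 0.0084).

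For the type I pair, the ratio differed from vehicle by 0.22 in each treated group. That is less than the SD of the vehicle tumours and more than that of either treated group. Col1a2 over Col1a1 was -0.70 ± 0.49 in vehicle, -0.48 ± 0.12 in dual and -0.48 ± 0.18 in triple tumours, and no difference passed (exact permutation, adjusted p = 0.329 for both treated groups against vehicle). Col6a2 over Col6a1 also passed in no comparison. Col4a2 over Col4a1, the pair with overlapping promoter windows, was -0.94 ± 0.10 in vehicle, -0.87 ± 0.11 in dual and -0.69 ± 0.11 in triple tumours. The triple group was higher than vehicle by 0.25 (exact permutation, adjusted p = 0.0044) and than dual by 0.18 (exact permutation, adjusted p = 0.0184), the latter being the 1 ratio of 11 called between the treated groups. Col5a1 over Col1a1 and Col6a1 over Col1a1 were lower in both treated groups than in vehicle, and Col4a1 over Col1a1 was lower in triple tumours. With 3 triple tumours left after removing those rich in muscle reads, the 8 calls with triple tumours no longer passed, in a test with far fewer assignments to enumerate. The differences from vehicle were then -2.72 for Col3a1 over Col1a1 and 1.82 for Col5a2 over Col5a1. For Col5a1, Col4a1 and Col6a1 over Col1a1 they were -2.04, -1.34 and -2.63, against -2.62, -2.39 and -3.44 with all 8. Col6a3 over Col6a1 differed by 0.49, and Col4a2 over Col4a1 by 0.17 from vehicle and 0.10 from dual tumours.

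**Figure D4:**
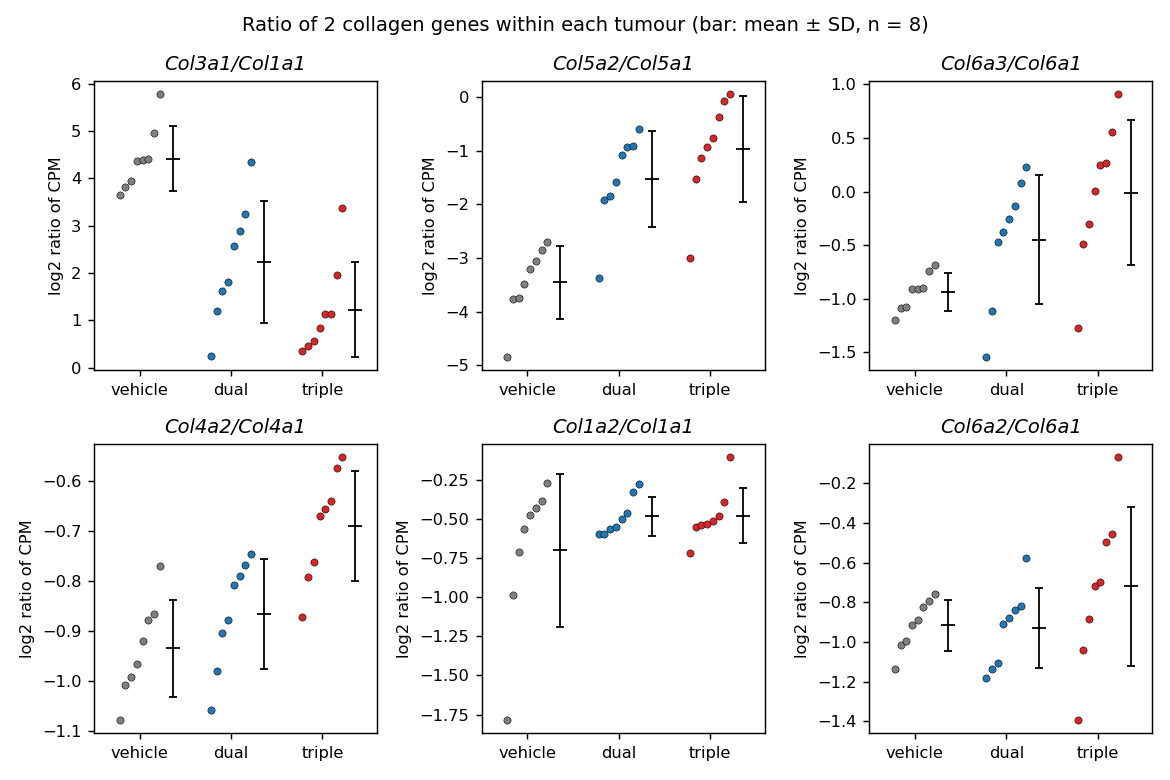
Log2 ratio of CPM of 6 pairs of collagen genes within each tumour, points sorted within the group, with the mean and SD of 8 tumours as a bar. Col3a1 over Col1a1 is lower in all triple tumours than in all vehicle tumours, Col5a2 over Col5a1 is higher in most treated tumours, and Col1a2 over Col1a1 overlaps across groups.

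The tumours of 1 group also differed among themselves, and Col1a1 and Col3a1 were each set against the other members. Pearson and Spearman correlations of these 2 genes with the other members at or above the median expression were computed in each group of 8 tumours, 111 relations in all, with exact permutation p over 40320 pairings and adjustment over all of them. Col1a1 was correlated with Col1a2 at r = 0.946 in vehicle (rho = 0.881), 0.996 in dual (rho = 0.952) and 0.996 in triple tumours (rho = 0.929), with exact adjusted p = 0.00224, 0.00172 and 0.00212 for r and 0.0383, 0.0138 and 0.0138 for rho. Without the 2 tumours farthest from the median of Col1a1, r was 0.857, 0.990 and 0.971. With Col5a2, r was 0.981, 0.987 and 0.986 (rho = 0.929, 1.00 and 0.929), with exact adjusted p = 0.00172, 0.00172 and 0.00224 for r and 0.0138, 0.00551 and 0.0138 for rho, and 0.936, 0.990 and 0.889 without the farthest 2.

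By Pearson's r, 8, 6 and 9 of the 19 partners of Col1a1 had an adjusted p under 0.05 in vehicle, dual and triple tumours, and 8, 3 and 6 of the 18 further partners of Col3a1. None of the 18 passed by rho in triple tumours. Correlations with genes outside the members were not computed, so these counts are not read as particular to collagen genes. For Col1a1, the partners passing by rho in triple tumours were only Col1a2, Col5a2 and Col15a1. In vehicle tumours they were these and Col14a1, and in dual tumours these, Col12a1 and Col14a1. In triple tumours the r of Col1a1 with Col12a1 was 0.950, and 0.410 without the farthest 2 tumours. The highest r of Col3a1 was with Col4a2 in vehicle (0.991, rho = 0.929), Col6a2 in dual (0.914, rho = 0.952) and Col5a1 in triple tumours (0.984, rho = 0.714), with exact adjusted p = 0.00172, 0.00308 and 0.00865 for r and 0.0138, 0.0138 and 0.139 for rho. Without the farthest 2 tumours these r were 0.975, 0.811 and 0.832.

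The relation of Col3a1 with Col6a1, 1 of those computed, also passed in vehicle and dual tumours. Their r was 0.953 in vehicle and 0.884 in dual tumours (rho = 0.976 and 0.929), with exact adjusted p = 0.00172 and 0.00743 for r and 0.00734 and 0.0138 for rho, and r stayed at 0.948 and 0.916 without the farthest 2. In triple tumours r was 0.927 (rho = 0.310, exact adjusted p = 0.0588 for r and 0.603 for rho) and 0.255 without the farthest 2, so that relation rested on those tumours. Col1a1 and Col3a1 themselves had r = 0.629 in vehicle, 0.130 in dual and 0.877 in triple tumours (rho = 0.667, -0.0952 and 0.643), with exact adjusted p = 0.174, 0.828 and 0.0294 for r and 0.174, 0.888 and 0.191 for rho. The triple value fell to 0.494 without the farthest 2 tumours.

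**Figure D5:**
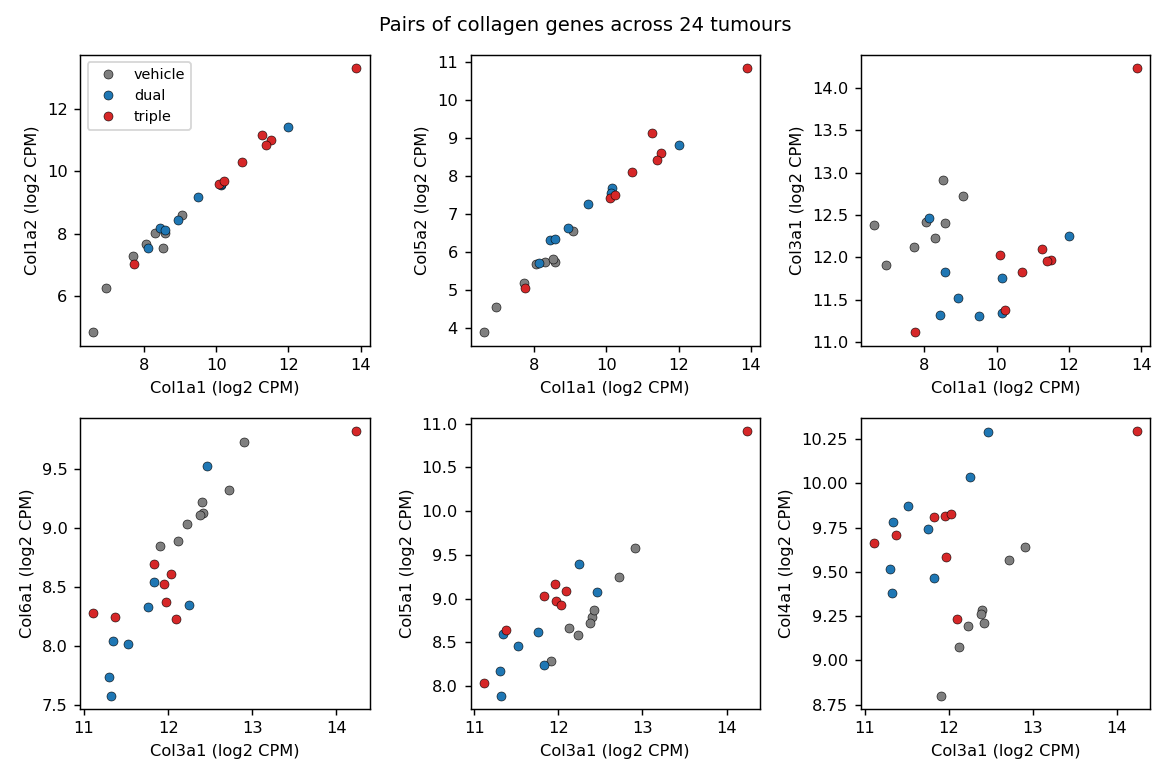
Log2 CPM of pairs of collagen genes, 1 point per tumour, coloured by group (8 each). Col1a1 and Col1a2 lie close to 1 line in all groups, with r from 0.946 to 0.996 within groups, while Col1a1 and Col3a1 do not in dual tumours (r = 0.130), and triple tumour T_352_S48 is the point at the top right.

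The counts of called genes that process and bind collagen are read beside those of all genes, which were 15% higher and 15.8% lower in dual and 23% higher and 22.8% lower in triple against vehicle tumours. Whether the calls of the genes named from these lists held under the muscle settings, or with 1 tumour left out, is not given here. Of 21 genes of collagen synthesis and folding, 4 were called higher and 2 lower in dual, and 7 higher and 7 lower in triple against vehicle tumours. Tmem38b, an ion channel of the endoplasmic reticulum, rose by 1.24 ± 0.29 and 2.08 ± 0.29 (adjusted p = 0.00206 and 6.67e-06 by limma), while P3h4, part of a complex that modifies collagen lysines, fell by 0.46 and 0.84 (SE 0.10, adjusted p = 0.000952 and 9.19e-07). Mia2, a factor of cargo export from the endoplasmic reticulum, rose by 0.32 ± 0.05 and 0.42 ± 0.05. Of 7 procollagen cleavage genes, 1 was higher and 2 lower in each treated group, with Bmp1, the proteinase that trims the C-terminal propeptide, at -0.55 ± 0.13 and -0.49 ± 0.13, and Adamts2, which trims the N-terminal one, at 2.49 ± 0.51 in triple tumours.

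All 6 crosslinking genes were measured, and 1 was called higher in dual (15% of all genes) and 4 in triple against vehicle tumours (23% of all genes), none lower. Lox, a lysyl oxidase that crosslinks fibrils, rose by 1.65 ± 0.62 in dual (adjusted p = 0.045 by limma) and by 2.81 ± 0.62 in triple tumours (adjusted p = 0.000793). Its relative Loxl1 rose in triple tumours by 3.14 ± 0.59 against vehicle and by 1.63 ± 0.59 against dual tumours, and the transglutaminase Tgm2 by 0.94 ± 0.16 and 0.71 ± 0.16. In triple against dual tumours 3 of the 6 were called higher (11.4% of all genes).

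Among 9 collagen receptors and uptake genes, 1 was higher (15% of all genes in dual, 23% in triple) and 3 lower (15.8% and 22.8%) in each treated group against vehicle. Lair1, an inhibitory collagen receptor of leukocytes, fell in dual tumours by 1.00 (SE 0.23, adjusted p = 0.00215 by limma) and was higher in triple than in dual tumours by 1.07 ± 0.23 (adjusted p = 0.00637). The summed share of the 9 macrophage markers moved the same way between these groups, with a mean of 0.184% of reads in vehicle (0.141% to 0.208%), 0.139% in dual (0.115% to 0.161%) and 0.263% in triple tumours (0.112% to 0.567%). That share differed between dual and vehicle (exact permutation, adjusted p = 0.00427) and between triple and dual tumours (exact permutation, adjusted p = 0.0233), 6 of the 9 were called higher in triple than in dual tumours, and their part in the Lair1 values was not tested. Ddr1, a receptor tyrosine kinase for collagen, fell by 0.48 and 0.87 (SE 0.17), and Itga11, a collagen-binding integrin chain, rose in triple tumours by 3.77 ± 0.87. Of 6 collagen-degrading enzymes, 2 were higher and 1 lower in dual, and 4 higher and 1 lower in triple tumours against vehicle. The collagenase Mmp13 rose by 1.64 ± 0.24 and 1.43 ± 0.24 and the membrane-bound Mmp14 fell by 0.65 and 0.48 (SE 0.11).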

How the data were processed

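Bulk RNA of 24 tumours, 8 per group, was sequenced from a stranded poly(A) kit per the labels' protocols. Per the submitters' processing notes, FastQC 0.11.8, STAR 2.7.9a, featureCounts 1.6.0, edgeR, limma and build GRCm39 were used, with no settings. The counting is not stated to use strand, so overlapping genes on opposite strands are less certain. The deposited values are on a log2 scale, and the values show them to be log2 CPM with 0.5 reads added, from which whole reads were recovered for 100% of values within 0.01 reads. Library sizes scaled by the authors were 0.88 to 1.07 times the recovered totals. No 2 tumours held identical values.

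The deposited log2 values of all 18723 genes were fitted with limma 3.58.1 (R 4.3.3), with 3 group means, a variance trend and no robust option, and p-values were adjusted by Benjamini-Hochberg over all genes. Groups came from the labels. Ratios, marker shares and correlations used exact permutation tests (scipy 1.17.1, Python 3.11.15). The code was tested on simulated data. Each p-value judges a difference or a correlation against the variation between these tumours. Exon lengths came from GENCODE vM21. Genes given in full were those called at least once with a mean at or above the median of all genes, and all chains of types I, III, IV, V and VI. From the pathway lists, up to 3 genes with the smallest adjusted p per comparison could be named. The members, lists and pairs were chosen with earlier results of these data known, and the correlations were added after the values were seen. The alternatives were other variance estimates, scalings, filters and tests, a muscle covariate and leaving out tumours. Reads are not independent molecules, and depth limits the genes counted at 0 to 20 reads.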

Additional observations from a re-analysis of the deposited data

Results flagged for a closer look

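In 141 sets of 8 values (a gene or ratio in 1 group), the highest or lowest tumour was compared with its neighbour by Dixon's gap over range, and 12 exceeded the critical value of 0.526. Chance alone would flag about 1 in 20 sets. Triple tumour T_352_S48 stood above the other triple tumours in Col3a1 (14.24 log2 CPM), Col5a1 (10.92), Col6a1 (9.82), Col6a2 (9.75) and Col6a4 (2.10). It was also the tumour with the highest share of collagen reads and of fibroblast marker reads. Col17a1 stood apart at 3.65 in triple tumour T_360_S46 and at -3.66 in dual tumour D_368_S36. Col11a1 stood apart at -4.92 in vehicle tumour C_361_S32, which is 0 reads, and at 2.66 in dual tumour D_373_S40. Col13a1 was low in vehicle tumour C_351_S29, at -2.78. The log2 ratio of Col1a2 to Col1a1 was low in vehicle tumour C_375_S31, at -1.78, and that of Col4a4 to Col4a3 in the same tumour at -1.58. No test of a cause was made for any of these values.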

How the results depend on the processing

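In dual against vehicle tumours, the number called lower (4) was 8 with tumour weights, 7 with only the 2 groups compared, with quantile normalization and without the triple tumours rich in muscle reads, and 2 at an adjusted p under 0.01, where the number called higher was 4. In triple against vehicle tumours, the muscle covariate left 6 higher and 1 lower, and removing the muscle-rich triple tumours left 8 higher. In triple against dual tumours, the number called higher (2) was 8 with tumour weights, 1 with robust variance, without trend and with quantile normalization, and 0 with precision weights, the exact Wilcoxon test, only the 2 groups compared, either muscle setting or an adjusted p under 0.01. The number called lower (1) was 0 with the 2 groups alone, the exact Wilcoxon test, either muscle setting and an adjusted p under 0.01. At an unadjusted p under 0.05 by limma, 18 members passed there, beside 7161 of all 18723 genes. Leaving out 1 tumour at a time, the counts higher and lower ran from 6 to 10 and 4 to 7 in dual against vehicle, 14 to 23 and 3 to 6 in triple against vehicle, and 0 to 19 and 0 to 1 in triple against dual tumours. The shares of all genes called under these alternative settings are not given, so the counts describe the members only. Col14a1 reversed to -0.16 in triple against vehicle tumours without the muscle-rich tumours, with T_331_S44, its lowest tumour, among the 3 triple tumours left. The cause of these changes was not tested. No paired analysis was possible because the mouse numbers are not shared between groups.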
